A study of Mus musculus with 2 samples.

Results

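The Hippo pathway and Tead genes examined here were the 4 TEAD transcription factor genes Tead1, Tead2, Tead3 and Tead4, the co-activator genes Yap1 and Wwtr1, the kinase genes Lats1 and Lats2, and the cofactor genes Vgll2 and Vgll3. These 10 genes were chosen by name, not by a measured value, from 21938 protein-coding genes of the GENCODE annotation. All 10 were found on the main chromosomes. For each, the open regions that overlapped the gene body extended by 100 kb on each side were taken, which gave 10 windows of 206 to 427 kb. The windows held 372 of the 177440 open sites that both replicates shared.

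In mm10 coordinates, Tead1 (ENSMUSG00000055320.17) lies at chr7:112679318-112906807 on the plus strand, Tead2 (ENSMUSG00000030796.17) at chr7:45215753-45233644 on the plus strand, Tead3 (ENSMUSG00000002249.21) at chr17:28331671-28350817 on the minus strand, Tead4 (ENSMUSG00000030353.15) at chr6:128224288-128300823 on the minus strand. Of the partner genes, Yap1 (ENSMUSG00000053110.13) lies at chr9:7931999-8004596 on the minus strand, Wwtr1 (ENSMUSG00000027803.14) at chr3:57455649-57575910 on the minus strand, Lats1 (ENSMUSG00000040021.13) at chr10:7681214-7716460 on the plus strand, Lats2 (ENSMUSG00000021959.16) at chr14:57689662-57758388 on the minus strand. Of the cofactor genes, Vgll2 (ENSMUSG00000049641.14) lies at chr10:52022502-52028471 on the plus strand and Vgll3 (ENSMUSG00000091243.2) lies at chr16:65815257-65866368 on the plus strand.

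The Hippo pathway is a kinase cascade that limits tissue growth. Its end kinases LATS1 and LATS2 phosphorylate the co-activators YAP1 and WWTR1 (also called TAZ) and keep them out of the nucleus. In the nucleus YAP1 and WWTR1 have no DNA-binding domain of their own and act through the TEAD factors, which bind the letters GGAATG or the reverse complement CATTCC. Vestigial-like proteins such as VGLL2 and VGLL3 also bind TEAD factors, at the surface that YAP1 and WWTR1 use. In mouse, Yap1 and Wwtr1 are needed in the neural crest cells that form most of the face.

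Tissue of the embryonic facial prominence was taken as 2 biological replicates from B6NCrl mice at day 14.5 of development, pooled male and female. They form the single group of the study, share 1 donor record, and no treatment, transgene or mutation is named for them. DNase-seq, which sequences the ends of fragments that DNase I releases from accessible DNA, gave for each replicate a list of peaks of 150 bp with a score from the authors and a list of broader hotspots. A tissue sample of this kind mixes cell types, so more cells with an open site and a more open site in each cell cannot be told apart, and open chromatin is not a measure of expression.

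The peak lists held 304233 regions in replicate 1 and 217980 in replicate 2 on the main chromosomes, with median scores of 50 and 37. Read counts are not given, so the depth is unknown. Of markers of the dissected tissue, all 12 genes of facial mesenchyme, all 7 of epithelium, all 5 of cartilage and bone, all 4 of skeletal muscle and all 4 of neurons had a promoter site in both replicates. Endothelial markers had one at 3 of 4 genes, macrophage markers at 0 of 3 and erythroid markers at 0 of 3, and markers of other organs at 1 of 5 (Nphs1, a kidney gene). The share over all protein-coding genes was 67.5%. The endothelial gene Pecam1 had a promoter peak in replicate 1 only (score 47), and the macrophage gene Ptprc in replicate 2 only (score 17). With 2 samples of 1 group no test across samples was possible, and what follows is a description of these 2 libraries.

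Each of the 10 genes had an open promoter in both replicates. A promoter site is here a shared site within 500 bp of a transcription start site of the gene, and among all protein-coding genes 67.5% had one. In replicate 1 alone all 10 had a promoter peak, against 70.9% of all protein-coding genes, and in replicate 2 alone all 10 had one, against 68.7%. The strength of the promoters was close to that of other open promoters. The strongest promoter site of each gene had a median score of 122 in replicate 1 and 109 in replicate 2 over the 10 genes, against medians of 122 and 111 over the 14813 protein-coding genes with such a site.

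Among the TEAD genes, the strongest promoter peak of Tead3 scored 132 in replicate 1 and 107 in replicate 2. That of Tead1 scored 117 and 112, that of Tead4 99 and 90, and that of Tead2, a factor of the early embryo and neural tissue in mouse, 93 and 80. Tead3 and Tead1 were thus above Tead4 in both replicates, while the order of Tead3 and Tead1 was not the same in both. The place of Tead2 turned on the limit of 500 bp. Its scores exceeded those of 23.7% of open promoters in replicate 1 and 24.8% in replicate 2, but a stronger shared site inside the gene, at chr7:45216556-45216705 with scores of 139 and 113, lay 506 bp from the nearest Tead2 start site. With a limit of 1000 bp that site counted, and Tead2 exceeded 80.5% of open promoters in replicate 1 and 52.9% in replicate 2, with the highest replicate 1 score of the 10 genes. The strongest scores of the other 9 genes were the same with that limit. Tead1, which in mouse is needed for heart development, had 7 annotated start sites in 3 places. The first 3 of them lay in the strong site at chr7:112679216-112679385, and a start site further in, at position 112742045 of the chromosome, had a weaker shared site with scores of 53 and 38. The other 3 start sites, at positions 112759384 to 112759483, had a peak (score 29) in replicate 2 only. Over all 10 genes 22 of 29 start sites (75.9%) had a shared site within 500 bp, against 65.5% of the 41525 start sites of all protein-coding genes, and the 7 without one belonged to Tead1, Tead2, Tead4, Lats1 and Lats2.

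Among the co-activator genes, the Wwtr1 promoter at chr3:57575816-57575965 scored 136 in replicate 1 and 118 in replicate 2, and the Yap1 promoter at chr9:8004576-8004725 scored 127 and 125. With the limit of 500 bp Wwtr1 had the highest score of the 10 genes in replicate 1, and Yap1 had it in replicate 2. The Yap1 promoter also lay in the broadest hotspot found at a promoter of these genes, 2526 bp in replicate 1 and 2474 bp in replicate 2. The kinase promoters were of like strength, with scores of 133 and 117 at Lats2 and 114 and 111 at Lats1. A start site of Lats2 lies 2 bp from that of Gm49361, a gene on the same strand that is annotated as protein-coding, so that site cannot be given to Lats2 alone. Of the cofactor promoters, Vgll3 scored 128 in replicate 1 and 97 in replicate 2, and Vgll2, a gene of skeletal muscle and of the pharyngeal arches, scored 89 and 81. Vgll2 and Tead2 were the lowest of the 10 in both replicates with the limit of 500 bp, and Vgll2 alone with that of 1000 bp.

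**Figure D1:**
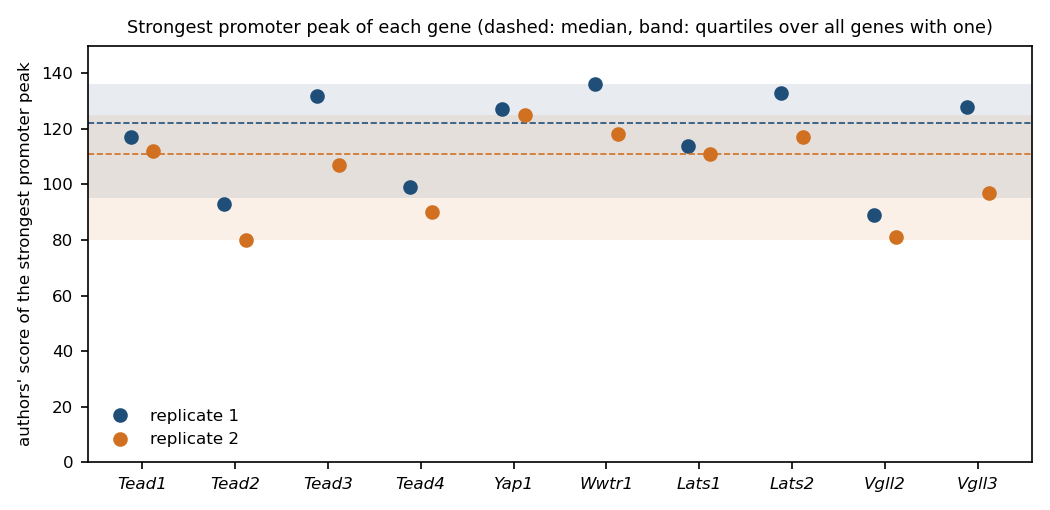
Score given by the authors to the strongest promoter peak of each of the 10 genes in replicate 1 (blue) and replicate 2 (orange), on the vertical axis from 0 to 150. Dashed lines and bands give the median and the quartiles over the 14813 protein-coding genes with a promoter site in both replicates, and most of the 10 genes lie within the bands, while Vgll2 (89) and Tead2 (93) lie below the band of replicate 1; the Tead2 site 506 bp from a start site (139 and 113) is not plotted.

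The hotspot that held the strongest promoter site was at the ceiling of 100 of the authors' −log10 q-value in both replicates for each of the 10 genes. Its width in replicate 1 and replicate 2 was 1978 and 1170 bp at Tead1, 1494 and 1567 bp at Tead3, 790 and 767 bp at Tead4, and 1559 and 1583 bp at Lats1. At Tead2 it was 406 and 1588 bp. The hotspot of 1588 bp in replicate 2 also held the stronger Tead2 site described above, which in replicate 1 lay in a separate hotspot of 1171 bp.

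In the RefSeq table of promoter windows of 300 bp (GRCm38.p6), which held 12 windows for 8 of the 10 genes, GC content had a median of 66.5%, against 52.7% over all 32851 windows, and the ratio of observed to expected CpG a median of 0.693, against 0.384. Tead3 had 3 of the 12 windows, and a Lats2 window at an inner start site without a shared site lay below both medians of all windows, at 42.7% and 0.293. The 2 sequences below that are marked as upstream parts leave out transcribed bases, and with the Vgll3 site they show the kind of DNA that was open at these promoters. Capitals mark the TEAD letters GGAATG or CATTCC, and each sequence runs 5′ to 3′ on the strand of the gene.
Vgll3 promoter site (chr16:65815076-65815245, plus strand): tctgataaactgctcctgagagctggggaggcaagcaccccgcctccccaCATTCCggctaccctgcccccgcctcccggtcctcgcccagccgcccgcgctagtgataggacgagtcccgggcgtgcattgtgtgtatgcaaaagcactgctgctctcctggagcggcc
Tead3 promoter site, upstream part (chr17:28350818-28351005, minus strand): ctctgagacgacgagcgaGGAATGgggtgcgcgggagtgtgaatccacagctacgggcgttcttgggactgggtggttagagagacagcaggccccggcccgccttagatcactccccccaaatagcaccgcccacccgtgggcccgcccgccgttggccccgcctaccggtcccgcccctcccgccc
Yap1 promoter site, upstream part (chr9:8004597-8004725, minus strand): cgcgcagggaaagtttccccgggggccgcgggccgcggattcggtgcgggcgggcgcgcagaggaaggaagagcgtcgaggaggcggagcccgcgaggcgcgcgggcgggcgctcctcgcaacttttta
The TEAD letters stood in the Vgll3 and Tead3 promoter sites and not in the upstream part of the Yap1 site. The strongest Tead1 promoter site (chr7:112679216-112679385), whose sequence is not shown, held the letters 2 times. In the RefSeq windows, 5 of the 8 genes (Lats2, Tead3, Vgll3, Wwtr1 and Yap1) had them on either strand, against 16.6% of all genes in the table. A match of 6 letters is a description of the sequence and does not show binding, and genes with several windows have more bases in which a match can fall.

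The distal sites, over 1000 bp from every start site of the basic GENCODE annotation, differed in density between the windows of the genes. The 10 windows held 274 shared distal sites, 10.2 per 100 kb, against 5.15 per 100 kb over the main chromosomes. A fairer comparison is with the windows of all protein-coding genes built in the same way, whose median was 6.30 sites per 100 kb, with quartiles of 3.34 and 9.14. The median over the 10 genes was 9.89, and 8 of the 10 lay above the upper quartile of all genes. In the order of density the windows were Tead3 with 16.9 sites per 100 kb, Tead1 with 14.3, Lats2 with 10.8, Tead2 and Tead4 with 10.1 each, Wwtr1 with 9.68, Yap1 with 9.17, Vgll3 with 9.16, Vgll2 with 4.86 and Lats1 with 3.4. The first pair lay above the 90th percentile of all genes, which was 11.9, and the last pair lay below the median. With replicate 1 alone, the longer list, the number of distal sites was over 1.5 times as high in the windows of Wwtr1 (47, against 31 shared), Vgll3 (36, against 23), Vgll2 (19, against 10) and Lats1 (15, against 8).

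**Figure D2:**
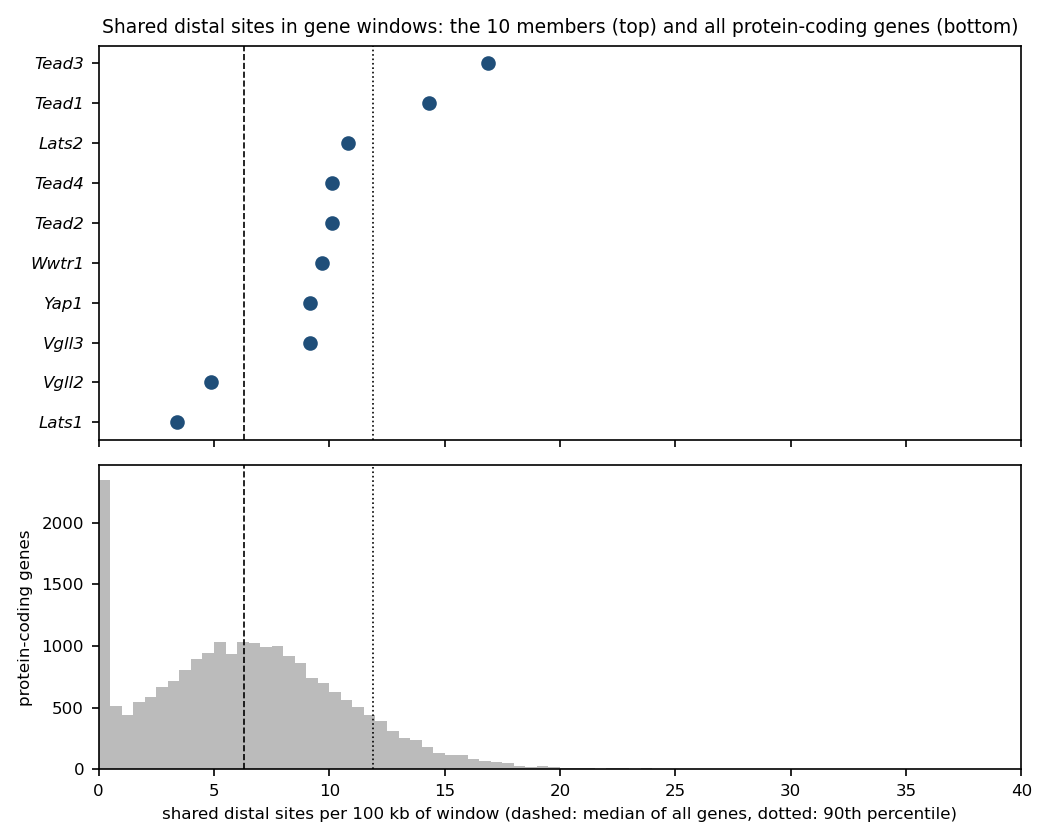
Shared distal sites per 100 kb of window (horizontal axis) for the 10 genes in the upper panel and, as a histogram, for all 21938 protein-coding genes in the lower panel. The dashed line is the median of all genes (6.30) and the dotted line their 90th percentile (11.9), and 8 of the 10 genes lie to the right of the median.

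A window also holds the neighbours of a gene, and the share of its sites that lay nearest to the gene itself varied widely. Tead1 had 61 distal sites in its window of 427 kb, more than 99.3% of protein-coding genes. This count grows with the length of the window, and per 100 kb Tead1 exceeded 96.3% of protein-coding genes. Of the 61 sites, 35 lay inside the gene. For 38 of them the nearest start site of a protein-coding gene was that of Tead1. Its window held 2 other protein-coding genes, Parva and Rassf10. Tead3 had 37 distal sites, but its window held 5 other protein-coding genes, and 4 of the sites were nearest to Tead3. The window of Tead2 held 15 other protein-coding genes and 12 sites at promoters of other genes, and 0 of its 22 distal sites were nearest to Tead2. Tead4 lay between, with 19 of 28 distal sites nearest to it and 17 inside the gene.

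The strongest distal sites of the Tead1 window were inside or just before the gene. An intronic site at chr7:112883956-112884145, 205 kb past the first start site, had scores of 126 in replicate 1 and 90 in replicate 2. It lay inside Tead1, but its nearest protein-coding start site was that of Rassf10. A site 15.8 kb before the first start site, at chr7:112663396-112663565, had scores of 121 and 93 and lay in hotspots 1087 bp wide in the first replicate and 821 bp wide in the other. This upstream site falls in an intron of 2310014F06Rik, a non-coding RNA annotated as transcribed from a bidirectional promoter, whose record on the other strand overlaps the start of Tead1. Another site, also intronic and 145 kb past the first start site, had scores of 120 and 86. All 3 were at the ceiling of the hotspot value in both replicates, as were 25 of the 61 distal sites of the window. In replicate 1 the 61 sites had scores from 34 to 126 with a median of 69, and in replicate 2 from 22 to 93 with a median of 46.

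At the other TEAD genes the strongest distal sites lay partly in or near neighbours. The first at Tead3 was an intronic site at chr17:28341156-28341325, 9.58 kb past the first start site, with scores of 114 and 101, followed by a site in an intron of Fkbp5, with 104 and 90. At Tead4, whose product in mouse is needed for the trophectoderm of the early embryo, the first was an intronic site at chr6:128285876-128286045, 14.9 kb past the start, with scores of 102 and 87. At Tead2 the first 3 sites lay 23.8 to 53.7 kb before the gene, near Slc17a7, Pth2 and Ccdc155, with scores of 142 and 119 for the strongest of them, at chr7:45162016-45162165. None of the 22 distal sites lay inside Tead2 itself, a gene of 17.9 kb.

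The co-activator genes resembled each other in the number of distal sites near them. Yap1 had 25 distal sites, 8 inside the gene and 9 nearest to it, and Wwtr1 had 31, 16 inside the gene and 8 nearest to it. The strongest at Yap1 was an intronic site at chr9:7960476-7960645, 44.0 kb past the first start site, with scores of 122 and 109, and a neighbouring site 42.6 kb past it had 80 and 70. Both lay in hotspots of 745 to 867 bp. The strongest at Wwtr1 was an intronic site at chr3:57487516-57487665, 88.3 kb past the start, with scores of 116 and 89. Its nearest protein-coding start site was that of Tm4sf4. The next was an intergenic site 28.9 kb before Wwtr1, at chr3:57604676-57604845, with 114 and 80.

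The 2 kinase genes stood at different places in the order of densities. Lats2 had 29 distal sites, 11 of them inside the gene, and its strongest sites had scores of 96 and 95 (in an intron of Gm49361, 66.0 kb past the first start site of Lats2) and 96 and 90 (1.38 kb past that start site). This first start site, position 57746123, is that of the annotation used and lies inside the Lats2 record, whose 5′ end is at 57758388. Lats1 had 8 distal sites, 0 of them inside the gene and 0 nearest to it. Its window also held 10 sites at promoters of other genes, coding or not, and 6 other protein-coding genes. Its strongest distal site, 80.4 kb before the gene in an intron of Lrp11, scored 70 in both replicates. A shared site in the gene 0.657 kb past its first start site, too near to count as distal, had scores of 105 and 93. Which gene a site acts on cannot be read from distance.

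The windows of the cofactor genes held the fewest other protein-coding genes, with 1 at Vgll2. The window of Vgll3 held no other protein-coding gene, and all 23 of its distal sites were nearest to Vgll3, 9 of them inside the gene. Sites nearest to Vgll3 without the limit of 100 kb exceeded those of 98.1% of protein-coding genes, and those of Tead1 97.4%. Such a count also depends on how far away the next genes lie. By density of distal sites in the window Vgll3 exceeded 75.1% of protein-coding genes, and Tead1 96.3%. By hotspot coverage of the window Vgll3 exceeded 40.1%, and Tead1 83.1%. The strongest Vgll3 site lay at chr16:65868056-65868225, 52.9 kb past the first start site, with scores of 104 and 63, and the next, at 13.0 kb in an intron, had 90 and 63. Vgll2 had 10 distal sites, all nearest to it and 0 inside its 5.97 kb. The strongest, 76.7 kb before the gene in an intron of the non-coding RNA Gm40646, scored 91 in replicate 1 and 49 in replicate 2.

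**Figure D3:**
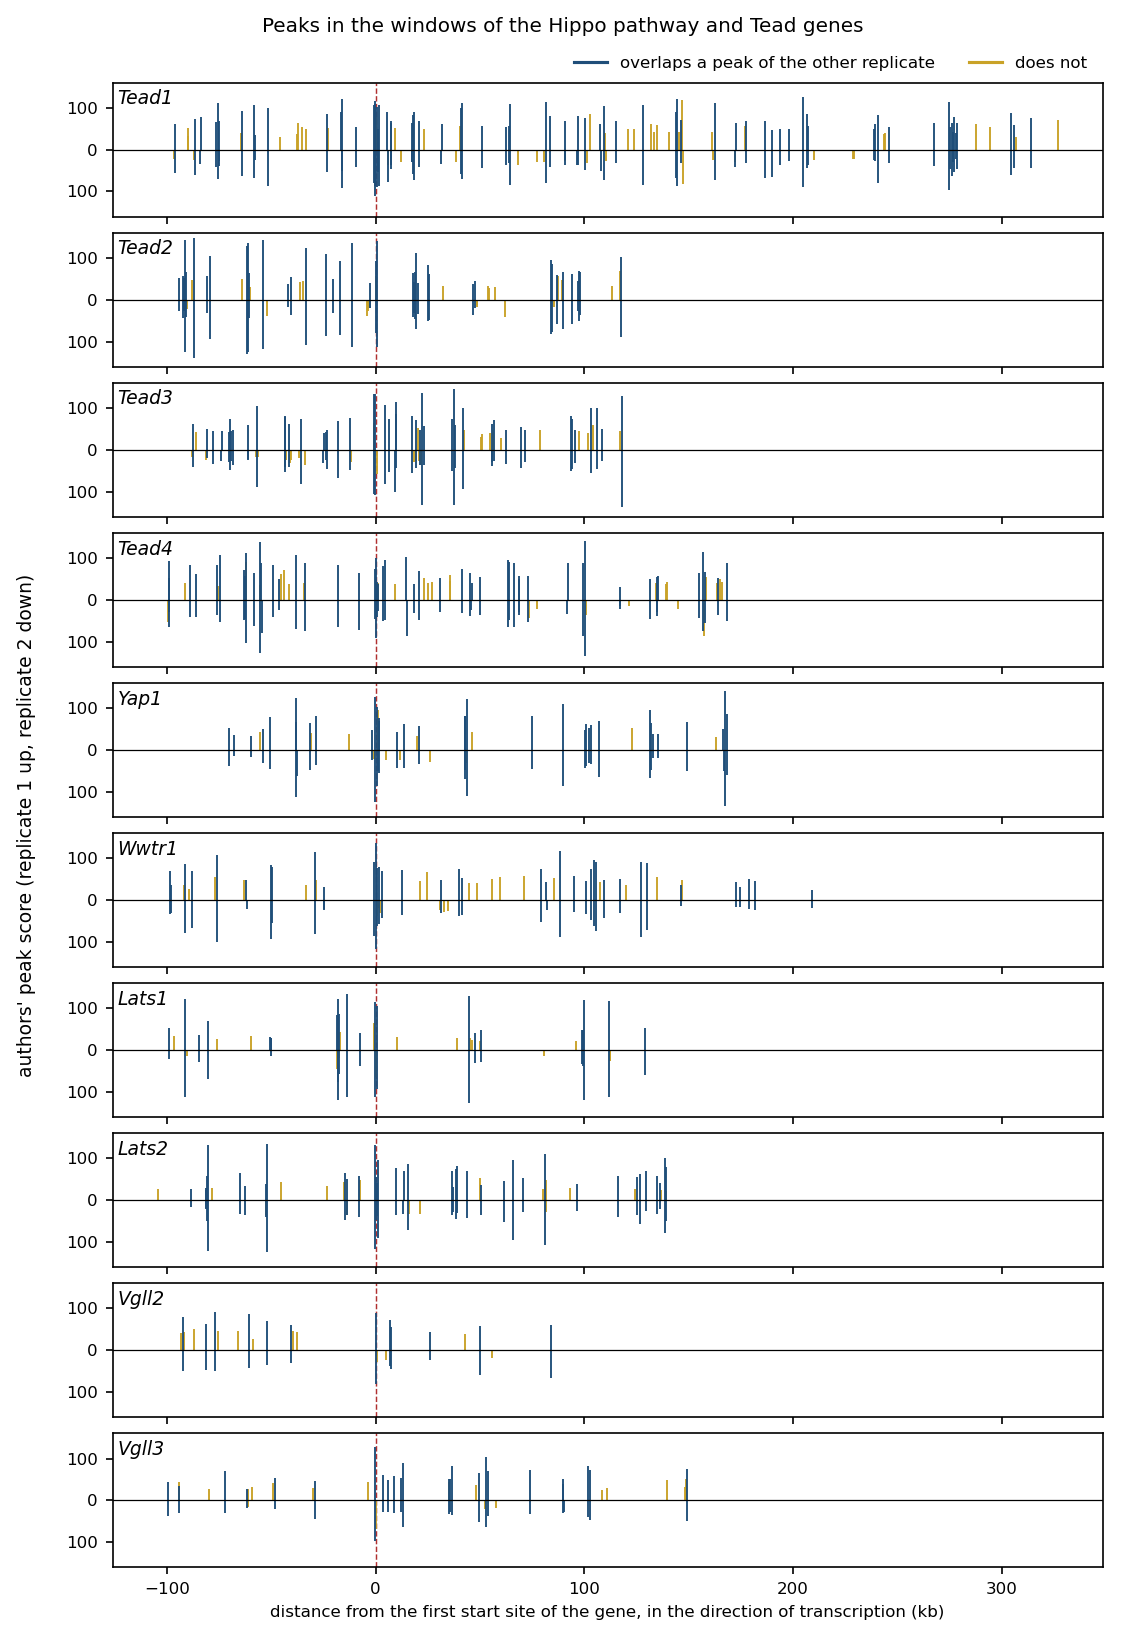
Peaks of both replicates in the window of each gene, by distance in kb from the first start site in the direction of transcription (dashed line at 0). Line height is the score given by the authors, drawn up for replicate 1 and down for replicate 2, with peaks that overlap one of the other replicate in blue and the rest in yellow; Tead1 has the most peaks (102 and 92) and Vgll2 the fewest (21 and 15).

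Shared sites did not have the same score in both lists. Of the 274 distal sites, 259 had the higher score in replicate 1, and the medians were 64 in replicate 1 and 42 in replicate 2, against 60 and 38 over all 140271 shared distal sites. No normalization is stated for the score. Sites whose rank in the lists averaged at or above the 90th percentile made up 10.9% of the distal sites in the windows (30 sites), against 6.23% of all. They numbered 11 of 61 distal sites at Tead1, 6 of 22 at Tead2 and 4 of 37 at Tead3. At Lats1, Vgll2 and Vgll3, with 8, 10 and 23 distal sites, there were 0.

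In the windows 70.8% of the 530 replicate 1 peaks had an overlapping replicate 2 peak, against 59.2% over the whole replicate 1 list. For the 465 replicate 2 peaks the share was 82.6%, against 83.6% over the whole list. By gene the share in replicate 1 ranged from 57.1% at Vgll2 to 81.4% at Yap1, and in replicate 2 from 74.1% at Lats1 to 88.1% at Tead4. The remaining 155 peaks of replicate 1 and 81 of replicate 2 had no such overlap, but 44 (28.4%) and 45 (55.6%) of them had a peak of the other replicate within 500 bp, against 21.8% and 48.9% of all such peaks on the main chromosomes. One case was an intron of Tead1, 147 kb past its first start site, where peaks with scores of 118 in replicate 1 and 82 in replicate 2 lay side by side without overlap. A peak of 1 replicate only is therefore not always a region that was closed in the other. Hotspots covered 2.87 to 8.89% of a window in replicate 1 and 1.90 to 8.62% in replicate 2, lowest at Vgll2 and highest at Tead2 in both, against medians of 4.72% and 3.54% over the windows of all protein-coding genes.

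The last question was whether the letters bound by TEAD factors stood in the open sites around the genes that encode them and their partners. The search used GGAATG on either strand in the 150 bp at the centre of each shared distal site. Of the 274 sites in the windows, 45 (16.4%, exact 95% binomial interval 12.2 to 21.4%) held the letters, against 12.6% of the other 139996 distal sites. Over all 140270 sites searched the share was also 12.6%, and it lies within the interval. For the 122 sites nearest to the 10 genes the share was 22.1% (15.1 to 30.5%), for the 101 sites inside them 20.8% (13.4 to 30.0%) and for 155 sites from peaks above the median score of each list 18.7% (12.9 to 25.8%), each against 12.6% of all sites taken in the same way, which lies below these intervals. With a flank of 50 kb it was 17.8% (12.5 to 24.2%), against 12.4%. With replicate 1 alone it was 13.5% (10.3 to 17.2%), against 12.5%, and with replicate 2 alone 14.4% (10.8 to 18.7%), against 12.3%. Windows of 150 bp placed 1000 bp to either side of the sites, free of peaks and hotspots, held the letters in 9.32% of 472 cases beside the sites of the 10 genes, against 7.93% of 245499 cases in all. The interval covers counting error only, neighbouring sites are not independent, and the sets of sites taken in these settings overlap.

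By gene the share was 27.0% at Tead3 (10 of 37 sites), 25% at Tead4 (7 of 28), 21.7% at Vgll3 (5 of 23), 21.3% at Tead1 (13 of 61), 12.9% at Wwtr1 (4 of 31), 10% at Vgll2 (1 of 10), 8% at Yap1 (2 of 25), 6.90% at Lats2 (2 of 29), 4.55% at Tead2 (1 of 22) and 0% at Lats1 (0 of 8). The 4 TEAD genes together had 31 of 148 sites with the letters (20.9%), the cofactors 6 of 33 (18.2%), the co-activators 6 of 56 (10.7%) and the kinases 2 of 37 (5.41%). These counts are small, and the differences between genes were not tested. In the Tead3 window 1 of these sites was nearest to Tead3, and the others lay in or near Ppard, Tulp1 and Fkbp5. For each of the 6 other motifs searched in the same way, the share over all distal sites lay within the exact 95% interval of the share in the windows. AP-1 letters (TGANTCA) stood in 4.38% of the sites against 6.58% of all distal sites, RUNX letters (TGTGGT) in 11.3% against 13.5%, SOX letters (ACAANG) in 27.7% against 28.2%, the CTCF motif in 11.3% against 10.1%, and E-box letters (CAGCTG) in 20.8% against 19.5%. The NFI motif stood in 0 of 274 sites, against 0.26% of all, and both AP-1 and TEAD letters in 3 sites (1.09%), against 0.856% of all.

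**Figure D4:**
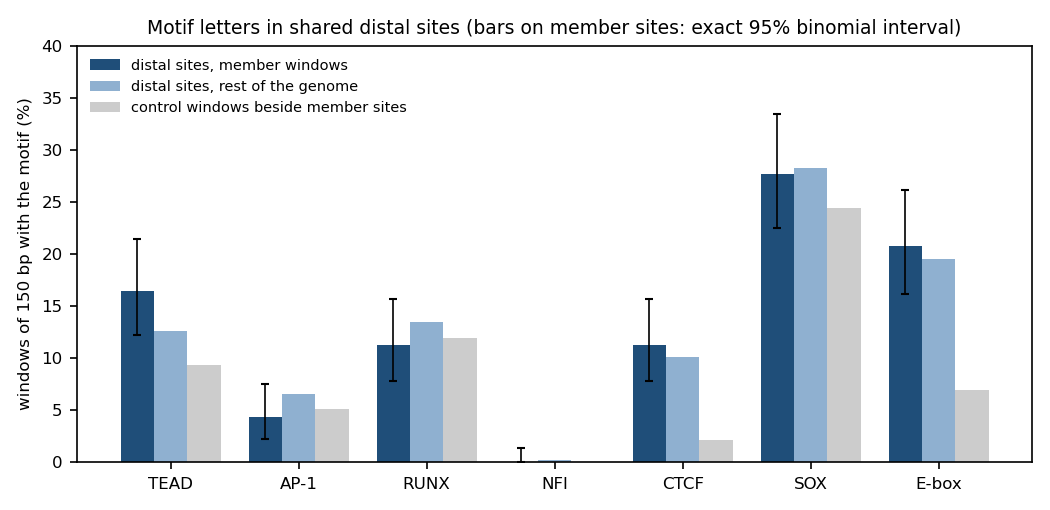
Percentage of 150 bp windows that hold each set of motif letters on either strand, for the 274 shared distal sites of the 10 gene windows (dark blue, with exact 95% binomial intervals), for the other 139996 distal sites (light blue) and for control windows beside the sites of the 10 genes (grey). For the TEAD letters the values are 16.4%, 12.6% and 9.32%.

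The sequences below are, for each gene that has one, the strongest shared distal site that holds the TEAD letters, lies in the gene or nearest to it and is clear of exons. They are shown because they put the letters searched for into open DNA around each gene. The first 3 belong to TEAD genes, and each runs on the strand of its gene with the TEAD letters in capitals.
Tead1 distal site (chr7:112663396-112663565, plus strand): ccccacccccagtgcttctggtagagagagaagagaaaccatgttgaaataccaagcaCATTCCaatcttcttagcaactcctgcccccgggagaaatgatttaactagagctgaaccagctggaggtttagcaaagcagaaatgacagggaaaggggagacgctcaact
Tead3 distal site (chr17:28340716-28340865, minus strand): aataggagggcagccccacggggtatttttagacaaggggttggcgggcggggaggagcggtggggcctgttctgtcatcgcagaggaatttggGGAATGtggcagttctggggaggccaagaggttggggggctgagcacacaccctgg
Tead4 distal site (chr6:128285876-128286045, minus strand): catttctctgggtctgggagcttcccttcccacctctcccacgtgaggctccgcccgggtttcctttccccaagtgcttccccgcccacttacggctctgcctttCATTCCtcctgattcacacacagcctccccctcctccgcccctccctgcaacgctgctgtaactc
The Tead1 sequence is the upstream site described above, with scores of 121 and 93, and the Tead4 sequence is the strongest distal site of its window, with scores of 102 and 87. The Tead3 site, 10 kb past the first start site, scored 86 and 44. Such sites numbered 9 at Tead1, 6 at Tead4 and 1 at Tead3, and 0 at Tead2, which had no distal site of its own.

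The other 5 belong to the co-activator, kinase and cofactor genes.
Yap1 distal site (chr9:8002776-8002945, minus strand): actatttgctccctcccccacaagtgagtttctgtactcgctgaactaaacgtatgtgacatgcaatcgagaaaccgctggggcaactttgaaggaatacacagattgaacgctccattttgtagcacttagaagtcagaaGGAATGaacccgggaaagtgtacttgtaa
Wwtr1 distal site (chr3:57471096-57471245, minus strand): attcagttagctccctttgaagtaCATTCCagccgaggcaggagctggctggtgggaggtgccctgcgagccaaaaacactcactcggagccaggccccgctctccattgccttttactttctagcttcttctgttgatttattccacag
Lats2 distal site (chr14:57760576-57760745, minus strand): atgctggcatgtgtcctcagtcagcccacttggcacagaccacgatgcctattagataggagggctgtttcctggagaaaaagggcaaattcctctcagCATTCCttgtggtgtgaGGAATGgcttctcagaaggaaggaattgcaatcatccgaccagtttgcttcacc
Vgll2 distal site (chr10:52029516-52029685, plus strand): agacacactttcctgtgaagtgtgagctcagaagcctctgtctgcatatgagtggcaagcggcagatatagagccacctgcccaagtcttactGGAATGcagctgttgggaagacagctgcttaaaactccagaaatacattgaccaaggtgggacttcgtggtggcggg
Vgll3 distal site (chr16:65828196-65828385, plus strand): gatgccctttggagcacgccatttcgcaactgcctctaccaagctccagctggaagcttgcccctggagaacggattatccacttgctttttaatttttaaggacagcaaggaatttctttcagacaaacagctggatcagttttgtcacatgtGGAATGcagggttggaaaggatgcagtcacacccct
The Yap1 site lay 1.74 kb past the first start site and scored 77 and 54, and the Wwtr1 site lay in an intron 105 kb past it and scored 96 and 61. The Lats2 site held the letters 2 times, once on each strand, and scored 64 and 48. It lay 14.5 kb before the first start site used, position 57746123, which is inside the Lats2 record (5′ end at 57758388). The Vgll2 site, 7.10 kb past the first start site, scored 72 and 37, and the Vgll3 site, in an intron at 13.0 kb, scored 90 and 63. In the windows the sites with the TEAD letters had median scores of 72 and 44, against 63 and 41 for those without, and over all distal sites the medians were 61 and 37 with the letters against 60 and 38 without.

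The wider pathway had open promoters as well. Of 43 other genes of the pathway, from upstream kinases to junction proteins, 41 (95.3%) had a promoter site in both replicates, against 67.5% of all protein-coding genes. The strongest promoter sites of these 41 genes had median scores of 126 and 117, against the 122 and 111 of all protein-coding genes with such a site. They included the kinase genes Stk3 (138 and 131) and Stk4 (126 and 124), whose products activate LATS kinases, their partner Sav1 (107 and 112), and Nf2 (147 and 138), which encodes the upstream regulator merlin. The scores of Nf2 were the highest of the 41 genes in both replicates, and the lowest were 68 in replicate 1 and 50 in replicate 2. The pathway genes without a promoter site in both replicates were Vgll1 and Fat2. Vgll1, a cofactor gene on chromosome X, had no promoter peak in either replicate. Fat2, which encodes an atypical cadherin, had its promoter called only in replicate 1 (score 71).

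Genes known as targets of YAP1 and TEAD factors in various cell types had a promoter site in both replicates at 20 of 21 genes (95.2%), against 67.5% of all protein-coding genes. The strongest promoter sites of these 20 genes had median scores of 123 and 108, against 122 and 111 over all protein-coding genes with such a site. Ccn1 and Ccn2, secreted matrix proteins widely used as readouts of the pathway, had promoter scores of 133 and 119, and 112 and 91. Ankrd1, a muscle protein gene also used as a readout, had 78 and 39. The exception was Foxf2, a forkhead gene of palate mesenchyme, called at its promoter only in replicate 1 (score 65). Lats2 is itself in this list, and 3 genes of it, Ajuba, Amotl2 and Ptpn14, are also among the 43.

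Over both lists, the 5 genes with most shared distal sites in their windows were Rbms3 with 120, Dlc1 with 64, Vgll4 with 61, Fat3 with 51 and Tnik with 44. With replicate 1 alone the counts were 234, 124, 92, 90 and 83 in the same order. These counts grow with the length of the window. Per 100 kb they were 9.55 at Rbms3, 10.9 at Dlc1, 19.7 at Vgll4, 6.45 at Fat3 and 7.18 at Tnik. Vgll4 encodes a TEAD cofactor that competes with YAP1, and its 61 sites equalled the number at Tead1 in a shorter window. The medians were 8.11 sites per 100 kb over the 43 pathway genes and 10.1 over the targets, against 6.30 over all protein-coding genes.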

How the data were processed

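DNase-seq peak and hotspot lists of 2 replicates were used as deposited (mm10). Both kinds of list came from the alignments of 1 replicate each, per the deposited file descriptions. The aligner and caller were not given in the sources used here. The peak lists give the authors' score per peak of 150 bp, with no stated normalization. The deposited hotspot lists give the −log10 of a q-value, from 1.30 to a ceiling of 100. Both were used only to describe and rank regions within a list. Only chromosomes 1 to 19, X and Y were kept, which removed 233 and 213 peaks; repeated coordinates (23 and 28 peaks) were kept once.

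A peak was shared when it overlapped the other list by 1 bp or more, and a site is the union of shared peaks that overlap each other. Start sites came from the basic GENCODE M21 annotation, and sequence from the RefSeq copy of GRCm38, which has the coordinates of mm10 (0 regions passed a chromosome end). Promoters lay within 500 bp of a start site and distal sites over 1000 bp from every start site of any gene. Coordinates are 1-based. Interval and motif counts used Python 3.11.15 with pandas 2.3.3 and numpy 2.4.6 and were tested on simulated regions with known answers. Exact binomial intervals (Clopper-Pearson) came from scipy 1.17.1.

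The members, gene lists, marker genes and rules for named genes were chosen with earlier results of these data known. Named genes were all members, the list genes without a shared promoter site and the 5 with most distal sites, and in each window the promoter site of highest score and up to 3 distal sites of highest mean rank; the other genes named, among them Ccn1, Ccn2, Ankrd1, Stk3, Stk4, Sav1 and Nf2, were picked for their role. The Tead3 and Yap1 promoter sequences were added after their values were seen. Alternatives changed the overlap, score threshold, list length, replicates, region type, promoter window, start sites, flank, assignment, motif and annotation.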

Additional observations from a re-analysis of the deposited data

How the results depend on the processing

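All 10 genes kept a promoter site under each of the 9 alternatives tried for it. Of the other pathway genes 39 to 42 had one. Of 345 recomputed values 269 stayed within the limits used and 76 moved further. The limits were 1.5-fold for counts, the binomial interval or the spread between replicates for percentages, and that spread for promoter scores. The 345 values include yes-or-no promoter calls at single named genes, so the total is not a measure of stability. Of the counts of distal sites per gene, 15 moved with no flank and 3 did not. The cause of the moves was not tested beyond the settings' own construction (shorter windows, fewer sites). Shared distal sites numbered 274, and 180 with a flank of 50 kb, 101 with no flank, 122 when only sites nearest to the gene were counted and 155 among peaks above the median score of each list; with either replicate left out they numbered 327 to 400. The share with the TEAD letters, 16.4%, was 22.1% for sites nearest to the genes, 20.8% inside them, 18.7% above the median score and 17.8% with a flank of 50 kb. In these 4 settings its interval lay above the share of all distal sites taken in the same way (12.4 to 12.6%), unlike in the other 6. With the flank of 50 kb the lower end was 12.5%, against 12.4%. The settings share sites, and Tead1 alone gave 38 of the 122 nearest sites and 35 of the 101 inside the genes. Neighbouring sites are not independent and the interval covers counting error only, so this is not a test of enrichment. The share was 5.84% for the letters ACATTCC (4.35% of all distal sites) and 23.0% in windows of 300 bp (21.3% of all). With either replicate left out it was 13.5 to 14.4%. Hotspots covered 5.74% of the windows, and 3.63% when only those at the ceiling were counted and 6.92% of the gene bodies; with either replicate left out the values were 5.24 to 6.25%. The shared part of the peaks of replicate 1, 70.8%, against 59.2% of the whole list, was 77.7% with lists of equal length (whole list 72.7%) and 66.2% with an overlap of 75 bp (55.3%). That of replicate 2, 82.6% against 83.6%, was 75.9% (73.7%) and 76.6% (77.6%) under these settings, and 88.4% (89.2%) above the median score of each list; with lists of equal length it thus lay above the whole list and not below it. The comprehensive annotation gave 257 distal sites, and a promoter limit of 1000 bp raised the mean score of the strongest Tead2 site to 126; both were chosen after seeing the data. Promoter sites of Fat2 and Foxf2 appeared with replicate 1 alone. No paired analysis was possible because the study has 1 group. Read depth is unknown, so absence from a list does not show closed DNA.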
